A study of Homo sapiens with 12 samples.

Results

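CD274, the gene of PD-L1, and 6 other genes for surface proteins by which a cell restrains or engages immune cells (CD276, CD47, CD70, CD80, CD86 and CEACAM1) were chosen by name. Of these 7 genes, 6 were found among the 4918 genes of the expression table, and CD86 was not analysed here. Of the 6, 5 were above 0 in all 12 samples, and CD80 was listed at 0 in 10 of 12. RNA was sequenced from A375, a single established human melanoma cell line, in 4 groups of 3 samples, all collected at 24 h. One group was labelled as having no treatment (control), one received SB-3CT, an inhibitor of the matrix metalloproteinases MMP2 and MMP9, one received the cytokine interferon gamma (IFNγ), and one received SB-3CT together with IFNγ. The labels mention a vehicle without saying which groups received it, and they speak of growing cells being divided into 3 parts without naming separate cultures, so the p-values measure only the spread between these samples.

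PD-L1 on a tumour cell binds PD-1 on T cells and dampens their activity, and IFNγ released by T cells is a known inducer of PD-L1. CD47 binds SIRPα on macrophages and restrains phagocytosis, CEACAM1 is an adhesion molecule that inhibits T and NK cells by binding to itself on the other cell, and CD276 (B7-H3) belongs to the same B7 family as PD-L1. CD80 and CD86 are the B7 ligands of CD28 and CTLA-4 and are typical of antigen-presenting cells, while CD70 is the ligand of the costimulatory receptor CD27.

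The sequences just upstream of 3 members are shown because IFNγ acts through DNA elements near gene starts and these 3 genes rose with it. Each is the 250 bases before the start of the RefSeq gene in GRCh38.p14, written 5′ to 3′ on the strand of the gene. Those of CD274 lie at chr9:5450292-5450541 on the plus strand, those of CEACAM1 at chr19:42528482-42528731 and those of CD47 at chr3:108091032-108091281, both on the minus strand. Capitals mark matches, on either strand, to GAAANNGAA, the pattern of a pair of interferon regulatory factor sites in an interferon-stimulated response element, or to TTCNNNGAA, the pattern of a gamma-activated site.
CD274: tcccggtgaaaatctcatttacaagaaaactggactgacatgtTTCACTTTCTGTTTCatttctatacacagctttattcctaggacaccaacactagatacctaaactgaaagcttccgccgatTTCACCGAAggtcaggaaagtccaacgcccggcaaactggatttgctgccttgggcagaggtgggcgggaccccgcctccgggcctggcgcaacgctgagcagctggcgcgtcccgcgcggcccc
CEACAM1: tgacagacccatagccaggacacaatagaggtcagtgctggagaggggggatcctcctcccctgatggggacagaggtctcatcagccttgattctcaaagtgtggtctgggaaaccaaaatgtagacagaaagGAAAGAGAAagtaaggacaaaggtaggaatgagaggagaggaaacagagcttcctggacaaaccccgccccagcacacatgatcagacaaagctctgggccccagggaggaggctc
CD47: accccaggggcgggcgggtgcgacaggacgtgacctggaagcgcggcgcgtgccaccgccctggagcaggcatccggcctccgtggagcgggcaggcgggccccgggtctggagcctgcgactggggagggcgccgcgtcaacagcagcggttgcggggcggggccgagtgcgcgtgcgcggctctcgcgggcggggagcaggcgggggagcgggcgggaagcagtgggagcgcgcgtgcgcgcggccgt
The CD274 stretch held 2 overlapping matches to GAAANNGAA on the opposite strand, from 207 to 199 and from 201 to 193 bases before the start, and 1 match to TTCNNNGAA from 125 to 117 bases before it. The CEACAM1 stretch held 1 match to GAAANNGAA, from 116 to 108 bases before the start. The CD47 stretch held neither pattern, and neither did the entries for CD276, CD80 and CD86. Entries of the table run from 250 bases before to 50 bases after a start and existed for 6 of the 7 members. Among all 35116 of them, 8.11% held GAAANNGAA, 7.66% held TTCNNNGAA and 14.8% held either pattern, so a match is common and describes letters only.

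The deposited values were log2(FPKM + 1), where FPKM is fragments per kilobase of transcript relative to all mapped fragments of the sample, a scale adjusted for length. Levels are given here as FPKM (mean ± SD, n = 3) and changes as differences on the log2(FPKM + 1) scale, which understate the change of low genes. A change was called when the adjusted p-value of limma (linear models with a variance trend, Benjamini-Hochberg over the 4918 genes) was under 0.05. CXCL10, a chemokine gene induced by IFNγ, stood at 0 to 0.05004 FPKM in the 6 samples without IFNγ and at 78.7 to 122.5 FPKM in the 6 with it, as labelled. Among the melanoma markers, CSPG4 and ERBB3 were at group means of 27.7 to 48.5 and 30.9 to 57.1 FPKM, while DCT, of the pigment pathway, was at group means of 0.278 FPKM or less and ABCB5 at 0.0124 FPKM or less. The 6 melanoma markers summed to 115 to 118 FPKM in the controls, 89.3 to 98.6 with SB-3CT, 87.9 to 92.5 with IFNγ and 62.4 to 68.0 with both. The 3 T cell markers found of 7 summed to 0.340 FPKM at most, and the B cell genes CD79A and CD79B stayed at 0.263 FPKM or less in every group mean, with the 4 B cell markers found of 6 summing to 1.16 to 2.58 FPKM, mostly CD22. The 3 myeloid markers found of 7 summed to 19.9 to 23.1 FPKM in the controls, 23.5 to 25.7 with SB-3CT, 26.7 to 32.0 with IFNγ and 27.9 to 30.05 with both. Nearly all of that was CD68, a lysosomal gene, while CD14 was at group means of 0.138 FPKM or less. The fibroblast list summed to 5.44 to 10.5 FPKM, mostly ACTA2, with COL1A1 at group means of 0.200 FPKM or less, and the 3 epithelial markers found of 5 to 7.63 to 11.75 FPKM, mostly CLDN4, with EPCAM at group means of 0.0845 FPKM or less. The part of these markers in the changes of the members was not tested. In bulk RNA, fewer cells of a type and less RNA per cell cannot be told apart.

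In the controls the members spanned a wide range of levels. CD70 was highest at 198.6 ± 1.97 FPKM, followed by CD276 at 54.5 ± 0.828, CD47 at 11.9 ± 0.741, CEACAM1 at 0.864 ± 0.155 and CD274 at 0.543 ± 0.105 FPKM. Every neighbouring pair in that order was separated without overlap of the 3 samples, and the order was the same with SB-3CT alone. CD80 was listed at 0 in all samples except the third control (0.0441 FPKM) and the third IFNγ sample (0.0540 FPKM), so no change is given for it. With IFNγ, CD274 stood above CEACAM1, while CD276 and CD47 overlapped, at 44.5 ± 0.898 and 40.9 ± 2.33 FPKM. They also overlapped with both agents, at 39.65 ± 2.44 and 36.65 ± 2.32 FPKM. The other neighbours did not overlap in either of those groups.

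**Figure D1:**
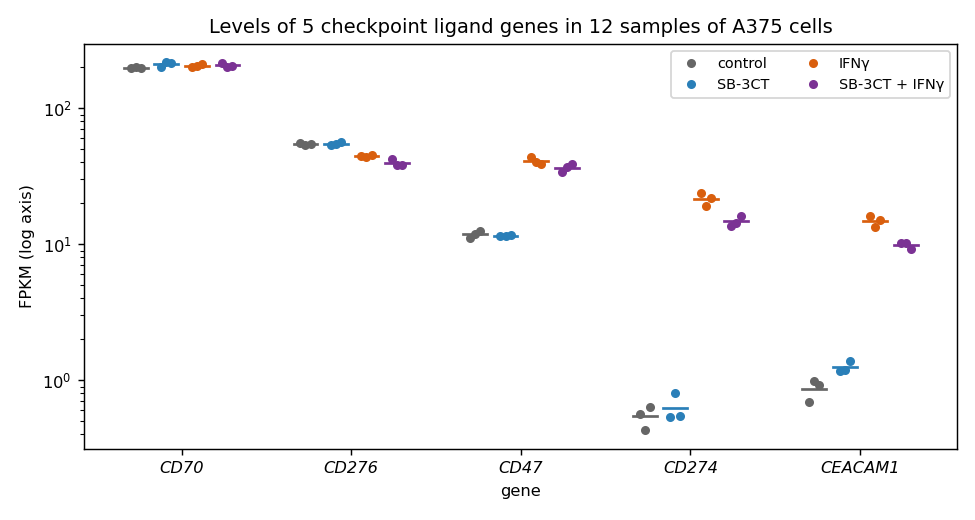
FPKM on a log axis of the 5 members above 0 in every sample, with a point for each of the 12 samples, colours for groups and lines for the mean of 3 samples. CD274, CEACAM1 and CD47 are higher in both groups with IFNγ, CD276 is lower, and CD70 stays between 197 and 218 FPKM in every sample.

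IFNγ was added to ask how the cells respond to an inducer of PD-L1, and CD274, CEACAM1 and CD47 rose with it while CD276 fell. CD274 was at 0.565, 0.428 and 0.635 FPKM in the controls and at 23.9, 19.3 and 21.9 FPKM with IFNγ. The lowest IFNγ sample was far above the highest control, and the ratio of the means was 40.0. The change was 3.88 on the log2 scale (SE 0.10, adjusted p = 3.87e-06), the 7th largest rise among the 4918 genes. CEACAM1 was at 0.690, 0.985 and 0.918 FPKM in the controls and at 16.0, 13.4 and 15.2 FPKM with IFNγ, a 17.2-fold higher mean. Its groups did not overlap, and the change of 3.09 (SE 0.10, adjusted p = 9.31e-06) was the 18th largest rise. CD47 was at 11.1, 11.99 and 12.6 FPKM in the controls and at 43.6, 40.1 and 39.1 FPKM with IFNγ, again without overlap. It rose by 1.70 (SE 0.06, adjusted p = 1.79e-05), a 3.44-fold higher mean and the 43rd largest rise.

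CD276 moved the other way. It was at 55.4, 53.7 and 54.4 FPKM in the controls and at 44.7, 43.6 and 45.3 FPKM with IFNγ, with all 3 IFNγ samples below all 3 controls. The mean was 18.3% lower, a change of -0.29 (SE 0.04, adjusted p = 0.00336). CD70 was at 197, 201 and 198 FPKM in the controls and at 200.3, 204 and 211 FPKM with IFNγ. Its groups overlapped, and the difference of 0.05 had a 95% interval of -0.05 to 0.14 (adjusted p = 0.475). In all, 3 of the 6 members were called higher and 1 lower, against 8.46% of all genes higher and 11% lower. An exact two-sided permutation test of 3 samples against 3 cannot go below 0.1, which is the value it gave for all 4 called members.

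With SB-3CT present, IFNγ moved the same members in the same directions. Against SB-3CT alone, CD274 was 23.4-fold higher in the mean (3.27, adjusted p = 1.1e-05), CEACAM1 7.91-fold higher (2.28, adjusted p = 1.31e-05) and CD47 3.16-fold higher (1.58, adjusted p = 1.45e-05). CD276 was 28.0% lower (-0.47, adjusted p = 0.00143). CD70 differed by -0.03 (95% interval -0.14 to 0.09, adjusted p = 0.714). Here 7.85% of all genes were called higher and 32.7% lower, so a call for a lower gene was frequent. CD276 lost its call under a scaling that centred the median of the ratios between samples (-0.21, adjusted p = 0.0523), while CD70 was then called higher (0.24, adjusted p = 0.0459) and, with the dependence on transcript length taken out, lower (-0.14, adjusted p = 0.0279).

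The comparison of both agents with IFNγ alone asked what SB-3CT did to the induced state, and here CD274 and CEACAM1 fell. CD274 was at 23.9, 19.3 and 21.9 FPKM with IFNγ and at 13.55, 14.4 and 16.2 FPKM with both. All 3 samples with both agents were below all 3 with IFNγ alone, and the mean was 32.1% lower. The change was -0.53 (SE 0.10, 95% interval -0.75 to -0.30, adjusted p = 0.00542). CEACAM1 was at 16.0, 13.4 and 15.2 FPKM with IFNγ and at 10.2, 10.2 and 9.31 FPKM with both. It too showed no overlap, with a mean 33.3% lower and a change of -0.54 (SE 0.08, 95% interval -0.73 to -0.35, adjusted p = 0.00311).

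CD276 was at 44.7, 43.6 and 45.3 FPKM with IFNγ and at 42.5, 38.1 and 38.4 FPKM with both. The groups did not overlap, yet the change of -0.17 (95% interval -0.30 to -0.03) had an adjusted p of 0.0564 with limma. It was called without the first sample with both agents (-0.21, adjusted p = 0.0259) and with all 4 groups in the fit (adjusted p = 0.0119). CD47 was at 43.6, 40.1 and 39.1 FPKM with IFNγ and at 34.2, 36.9 and 38.8 FPKM with both. Its closest samples were nearly level, and its change was -0.16 (95% interval -0.31 to -0.00, adjusted p = 0.106). CD70 was at 217, 202 and 205 FPKM with both agents, overlapping the IFNγ samples, with a difference of 0.02 (95% interval -0.10 to 0.14, adjusted p = 0.818). Thus 2 of the 6 members were called lower and none higher, against 31.5% of all genes lower and 6.41% higher. When only the 3177 genes with a mean of at least 1 FPKM were tested, which include 5 of the members, 1510 were called lower and 348 higher. Separation without overlap towards lower values, seen for 4 members, was found for 39.6% of all genes.

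The whole distribution was shifted in this comparison: the median change of the 3177 genes with a mean of at least 1 FPKM was -0.20 on the log2 scale. The medians were also -0.21 in both agents against SB-3CT and -0.19 in the interaction, which sets the SB-3CT effect in the presence of IFNγ against that in its absence, but -0.04 for IFNγ and -0.03 for SB-3CT alone against the controls. Relative to the median, CD274 stood at -0.33 and CEACAM1 at -0.34, while CD276 stood at 0.03, CD47 at 0.04 and CD70 at 0.22. After scaling by the median ratio, CD274 remained called at -0.28 (adjusted p = 0.032) and CEACAM1 at -0.30 (adjusted p = 0.0088), CD276 and CD47 changed sign, and CD70 was called higher (0.27, adjusted p = 0.0184). The same scaling turned the split of all called genes from 315 higher and 1547 lower to 811 higher and 760 lower. When the dependence on transcript length was taken out of every sample instead, CEACAM1 kept its call (-0.27, adjusted p = 0.0194), CD274 did not (-0.25, adjusted p = 0.0655), and CD47 was called higher (0.21, adjusted p = 0.0462). No member was called by the per-gene test that also asks for a 1.5-fold change of the mean FPKM. The means of CD274 and CEACAM1 with both agents, at 67.94% and 66.69% of those with IFNγ alone, fell short of that fold.

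**Figure D2:**
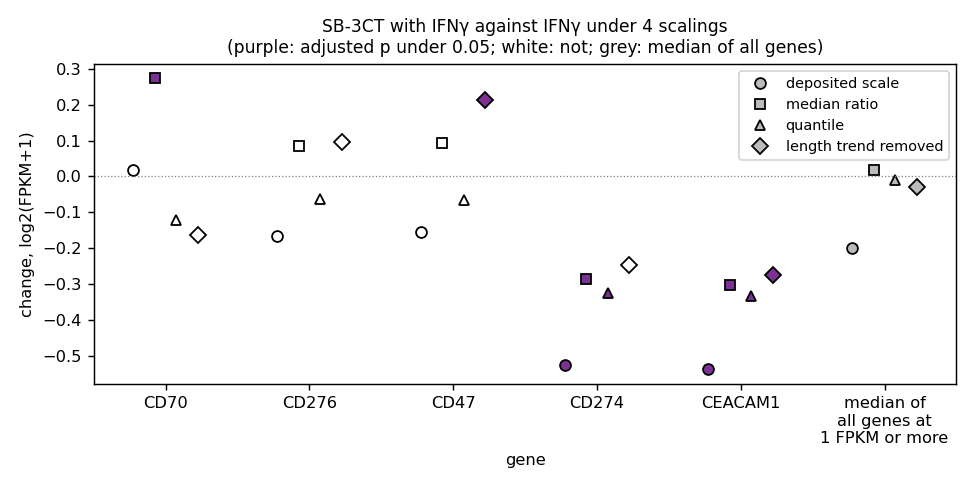
Log2 change of the members between both agents and IFNγ alone under the deposited scale and the 3 other scalings (marker shapes), filled purple where the adjusted p-value was under 0.05, with the median of all genes in grey. CD274 and CEACAM1 lie below 0 under every scaling, from -0.25 to -0.54, while CD276, CD47 and CD70 lie on both sides of 0.

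SB-3CT without IFNγ, set against the controls, changed no member past the threshold with limma, where 12.2% of all genes were called. CD274 was at 0.534, 0.808 and 0.548 FPKM with SB-3CT and overlapped the controls, with a change of 0.08 (95% interval -0.12 to 0.27, adjusted p = 0.589). CEACAM1 was at 1.175, 1.196 and 1.39 FPKM with SB-3CT, above all 3 controls. The mean was 1.45-fold higher, a change of 0.28 with limma (95% interval 0.08 to 0.47, unadjusted p = 0.0122, adjusted p = 0.0717). CD70 was at 202, 218 and 215 FPKM with SB-3CT, also above all controls, with a change of 0.09 (95% interval -0.01 to 0.19, adjusted p = 0.208). CD47 was at 11.55, 11.5 and 11.7 FPKM (-0.03, 95% interval -0.17 to 0.10, adjusted p = 0.754) and CD276 at 53.9, 54.8 and 56.6 FPKM (0.02, 95% interval -0.07 to 0.10, adjusted p = 0.83), both overlapping the controls. Of all genes, 14.2% had all SB-3CT samples above all controls. CEACAM1 was called when genes were first filtered at a mean of 1 FPKM (adjusted p = 0.0445) and after quantile normalization (adjusted p = 0.0477), and CD70 without the first SB-3CT sample (0.12, adjusted p = 0.0448). The filter called 366 of 3177 genes higher and 535 lower. Of 4918 genes, quantile normalization called 346 higher and 320 lower, and the set without that sample 302 higher and 610 lower.

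**Figure D3:**
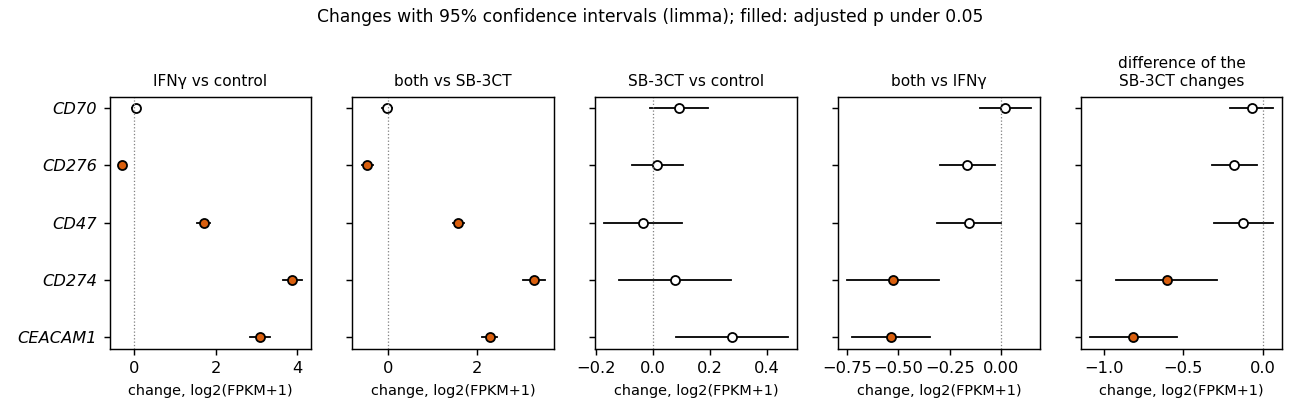
Log2 change of each member in the 4 pairwise comparisons and in the interaction, with bars for 95% confidence intervals, filled points where the adjusted p-value was under 0.05 and a horizontal scale of its own in each panel. The rises of CD274, CEACAM1 and CD47 with IFNγ lie between 1.58 and 3.88, and the SB-3CT changes lie between -0.54 and 0.28.

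The interaction was fitted over all 12 samples and was called for 2 of the 6 members, CD274 and CEACAM1, both in the lower direction, against 17.6% of all genes lower and 4.74% higher. For CD274 the change with IFNγ was lower than that without it by -0.60 (SE 0.14, 95% interval -0.92 to -0.29, adjusted p = 0.0154). For CEACAM1 the difference was -0.81 (SE 0.12, 95% interval -1.09 to -0.54, adjusted p = 0.00378), the 21st lowest among all genes. CD276 differed by -0.18 (adjusted p = 0.0659, and -0.23 with 0.0186 without the first sample with both agents), CD47 by -0.12 (adjusted p = 0.336) and CD70 by -0.07 (adjusted p = 0.451). CD274 did not pass the threshold after scaling by the median ratio (-0.38, adjusted p = 0.0814), quantile normalization (-0.44, adjusted p = 0.058) or removal of the length trend (-0.34, adjusted p = 0.135), whereas CEACAM1 passed under all 19 alternatives. On the linear scale, IFNγ added 21.2 ± 1.34 FPKM (SE) of CD274 without SB-3CT and 14.1 ± 0.794 FPKM with it. The corresponding increments were 14.0 ± 0.792 and 8.665 ± 0.312 FPKM for CEACAM1, and 29.0 ± 1.41 and 25.1 ± 1.34 FPKM for CD47.

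Genes with a pattern like that of a member were found by the root mean square difference of log2 values, each relative to its control mean, over the 12 samples, which share the same libraries. Nearest to CD274 were C1R (0.25), a protease of the complement cascade, CD7 (0.27), A2M (0.27), a plasma protease inhibitor, APOL6 (0.28) and BATF2 (0.29), a transcription factor. CEACAM1 was 11th in that order, at 0.58. APOL6, an apolipoprotein L gene induced by interferon, went from 1.64 FPKM in the controls to 31.5 with IFNγ and 19.0 with both agents. CD7 went from 0.0389 FPKM in the controls to 11.4 with IFNγ and 12.8 with both. Nearest to CEACAM1 were ACSL5, an acyl-CoA synthetase (0.09), and CSF1, a macrophage growth factor (0.12). ACSL5 had group means of 0.738, 0.949, 14.45 and 9.74 FPKM in the controls, SB-3CT, IFNγ and both. EXOC3L1 and ACY3 were nearest to CD47 (both 0.13), but at far lower levels, where the log2(FPKM + 1) scale understates changes. From the controls to IFNγ, CD47 went from 11.9 to 40.94 FPKM, EXOC3L1 from 0.2236 to 3.198 and ACY3 from 0.03464 to 2.098. The fold changes of EXOC3L1 and ACY3 were thus larger than that of CD47. The receptor EPHB4 (0.04) and its ligand family member EFNB1 (0.05) were nearest to CD276.

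Genes around the members were followed as lists. Of 7 genes taken as reference for the IFNγ response, 5 were found. With IFNγ 5 of 5 rose, led by CXCL10 (6.35) and APOL6 (3.62), where 8.46% of all genes were called higher. With both agents against IFNγ alone, 4 of 5 fell, led by APOL6 (-0.70, adjusted p = 0.00209) and APOL1 (-0.51, adjusted p = 0.00305), and CXCL10 rose (0.44, adjusted p = 0.00874). In this comparison 31.5% of all genes were called lower and 6.41% higher. APOL6, APOL1 and CXCL10 kept their sign and call under the other scalings. The list gave 3 of 5 lower with the median ratio, 4 after quantile normalization and 3 after removal of the length trend. The list's median was -0.49 beside -0.20 for all genes with a mean of at least 1 FPKM. CXCL10 overlaps the gene ART3 on the opposite strand, and strand-specific counting was not stated in the sources used here.

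Of 6 genes for regulators of CD274 transcription, none was called with IFNγ on the deposited scale. With IFNγ, 2 of 6 were called higher under each of the 3 other scalings. EZH2 was called in each, with adjusted p = 0.00516 (median ratio), 0.0178 (quantile normalization) and 0.0207 (length trend removed). Of the 4918 genes, 596, 507 and 462 were then called higher. On the deposited scale 6 of 6 fell with both agents against IFNγ alone, where 31.5% of all genes were called lower. All 6 had a mean of at least 1 FPKM, and 1510 of the 3177 such genes were called lower when tested alone. The median of the list was -0.42, beside -0.20 for all genes with a mean of at least 1 FPKM. The largest falls were in EZH2, a histone methyltransferase, which went from 16.25 ± 1.32 to 10.3 ± 0.246 FPKM (-0.61, adjusted p = 0.00209), and in EP300, a histone acetyltransferase, which went from 5.36 ± 0.479 to 3.34 ± 0.176 FPKM (-0.55, adjusted p = 0.00366). With median-ratio scaling 3 of 6 were lower, after quantile normalization 3, and after removal of the length trend 1, which was EZH2, and none was higher. Of 8 genes for regulators of the PD-L1 protein, 7 were found, and 3 of 7 fell with IFNγ, where 11% of all genes were called lower: COPS5, whose product deubiquitinates PD-L1 (-0.43), CMTM4 (-0.35) and CDK5 (-0.29). With median-ratio scaling CDK5 was not called (-0.25, adjusted p = 0.0571), and 2 of 7 were called lower and 1 higher, beside 500 lower and 596 higher of the 4918 genes. With both agents against IFNγ alone, CUL3, a scaffold of ubiquitin ligases (-0.45, adjusted p = 0.0267), and CMTM6, which protects PD-L1 from degradation (-0.42, adjusted p = 0.0146), fell, and CDK5 rose (0.17, adjusted p = 0.0469), where 31.5% of all genes were called lower and 6.41% higher. With median-ratio scaling neither CUL3 nor CMTM6 was called, and 3 of the 7 were called higher, CDK5 (0.42) and COPS5 (0.42) among them. After quantile normalization CMTM6 was called lower (-0.31, adjusted p = 0.0438) and CDK5 higher (0.24, adjusted p = 0.0243), and with the dependence on length taken out none of the 7 was called.

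Other immune surface proteins gave 17 of 17 genes. With IFNγ 4 rose, led by BST2, an antiviral membrane protein (6.55, from 2.83 ± 0.744 to 353 ± 7.91 FPKM), and CD40 (2.05), and 2 fell, C10orf54, the gene of the checkpoint protein VISTA (-0.68), and CD55, a brake on complement (-0.36). Of all genes, 8.46% were called higher with IFNγ and 11% lower, so 2 falls among 17 genes are near the share of all genes. With both agents against IFNγ alone, 9 of 17 fell, led by the adhesion proteins ALCAM (-0.57, adjusted p = 0.00539) and CD44 (-0.51, adjusted p = 0.00236), with none higher, against 31.5% of all genes lower. Of the 17, 14 had a mean of at least 1 FPKM, and 1510 of the 3177 such genes were called lower when tested alone. ALCAM was not called after quantile normalization (-0.27, adjusted p = 0.0723), and with the dependence on length taken out neither ALCAM (-0.28, adjusted p = 0.0675) nor CD44 (-0.13, adjusted p = 0.0524) was. The list's median of -0.28 stood beside -0.20 for all genes with a mean of at least 1 FPKM, and after scaling by the median ratio 4 were lower and 2 higher. Of 9 genes for receptors and binding partners of the members, 4 were found, all below 1 FPKM. One of the 4, CTLA4, named because its values had been seen, rose with IFNγ from 0.352 ± 0.188 to 0.908 ± 0.0761 FPKM (0.51, adjusted p = 0.0211) and fell to 0.498 ± 0.0999 FPKM with both (-0.35, adjusted p = 0.00628). After quantile normalization that fall was not called (adjusted p = 0.067).

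**Figure D4:**
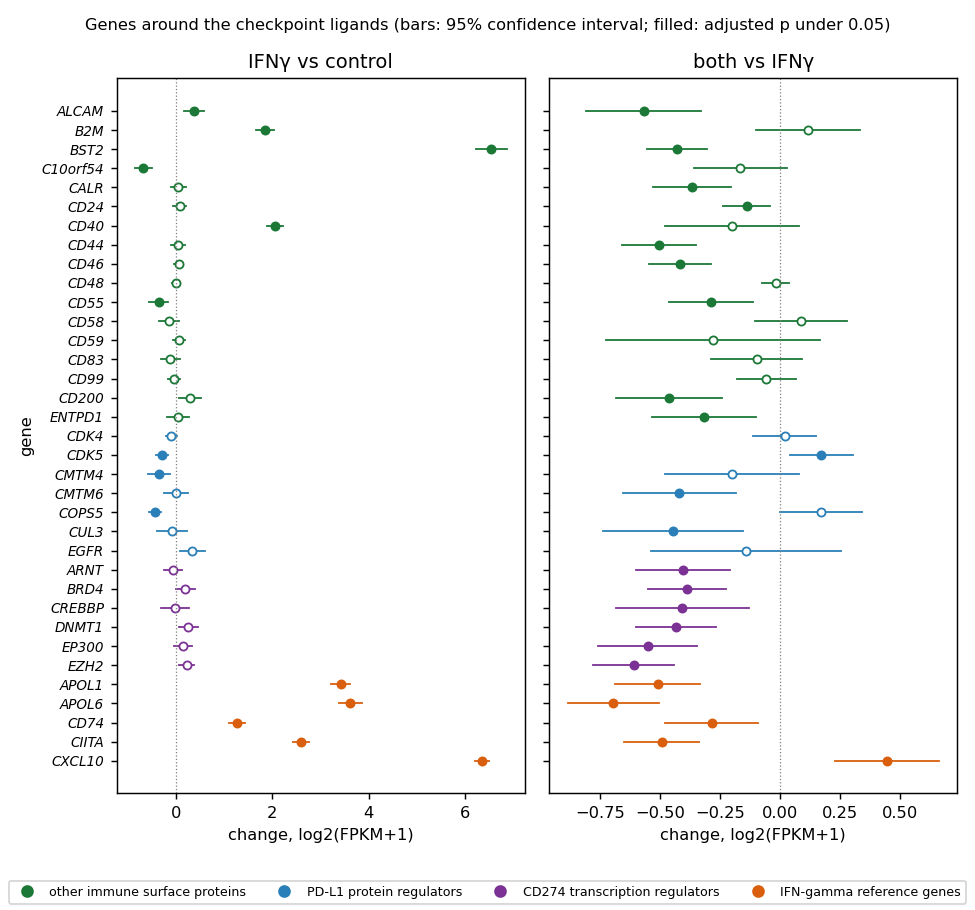
Log2 change of the genes of 4 lists between IFNγ and control (left) and between both agents and IFNγ alone (right), with 95% confidence intervals, colours for lists and filled points for an adjusted p-value under 0.05. BST2 and CXCL10 lie furthest right in the left panel, and CXCL10 and CDK5 are the genes with filled points above 0 in the right panel.

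The genes lie apart in the genome. In hg19 coordinates of the annotation, CD274 spans chr9:5450503-5470566 on the plus strand, CD276 chr15:73976307-74006855 on the plus strand, CD47 chr3:107761938-107810709 on the minus strand, CD70 chr19:6583194-6604114 on the minus strand and CEACAM1 chr19:43011456-43065386 on the minus strand. CEACAM1 shares near-identical stretches with other CEACAM genes. It overlaps the pseudogene CEACAMP2 on the same strand and lies within LIPE-AS1 on the opposite strand, and CD274 overlaps an antisense long non-coding RNA. None of these neighbours was analysed here, so the share of reads they could take from, or add to, CEACAM1 and CD274 is uncertain.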

How the data were processed

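RNA-seq was analysed from 12 A375 samples, 3 per group. Per the labels, reads were processed by the authors with HISAT2 2.0.5 on hg19 and StringTie 1.3.3. The authors deposited values that match log2(FPKM + 1), the largest being 12.2, and the tests, which had been laid out for FPKM, were run on them without a further logarithm. FPKM was 2 to the power of the value minus 1, and summed to 121928 to 129692 per sample over the 4918 genes used (symbols A1BG to FAM46B; later genes were not analysed here). Read numbers were not given in the sources used here, so no counting error is given. Each column was assigned by its name, leaving 0 unused.

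The limma package (3.58.1, under R 4.3.3) was used for all tests except the permutation test and the equal-variance test per gene. Its settings were eBayes with trend, unpaired, on the 3 + 3 samples of a comparison, or all 12 for the interaction. Benjamini-Hochberg adjustment was over all genes, with a threshold of 0.05. Scripts were tested on simulated data. Genes named beside the members were, of each list, at most the 2 largest rises and 2 largest falls in IFNγ against control and in both agents against IFNγ alone among called genes with a group mean of at least 1 FPKM, together with the 5 genes most like CD274, the 2 most like each other called member, and CXCL10. CTLA4 and the markers named stand outside that rule. The members and the lists, written by hand, were chosen with earlier results of these data known. Alternatives were a pseudocount of 0.1, a mean of at least 1 FPKM, quantile normalization, scaling by the median ratio, eBayes without trend, a replicate block, a joint fit of the 4 groups, leaving out each sample, an equal-variance test per gene that also asks for a 1.5-fold change of FPKM, and, added after the data were seen, correction for transcript length. Gene positions came from GENCODE mapped to GRCh37 (hg19) and upstream sequences from RefSeq, GRCh38.p14.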

Additional observations from a re-analysis of the deposited data

Results flagged for a closer look

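The interaction, the SB-3CT effect in the presence of IFNγ less that in its absence, passed the threshold for CD274 (-0.60 on the log2 scale, limma adjusted p = 0.0154) and for CEACAM1 (-0.81, adjusted p = 0.00378). Of all genes, 17.6% were called lower in it and 4.74% higher. CD274 did not pass with the median ratio (adjusted p = 0.0814), quantile normalization (0.058) or the length trend removed (0.135), while CEACAM1 passed under each. For both genes all 3 samples with both agents lay below all 3 with IFNγ alone, while without IFNγ all 3 SB-3CT samples of CEACAM1 lay above the controls and those of CD274 overlapped them. The former separation was found for 39.6% of all genes, and that of SB-3CT samples above controls for 14.2%.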

How the results depend on the processing

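The rises of CD274, CEACAM1 and CD47 with IFNγ, with and without SB-3CT, kept their call under all 15 alternatives, and the falls of CD276 lost theirs under the per-gene test with the 1.5-fold threshold (-0.29 without and -0.47 with SB-3CT). For both agents against IFNγ alone, CD274 lost its call under that test (-0.56, unadjusted p = 0.0111) and after removal of the length trend (-0.25), and the per-gene test left 0 members called (2 in the main analysis). For SB-3CT against control, the filter at a mean of 1 FPKM, quantile normalization and the set without the first SB-3CT sample gave 1 call each (0 in the main analysis), all higher. Among all genes these settings called 366 of 3177, 346 of 4918 and 302 of 4918 higher. For the interaction, CD274 went to -0.38 with the median ratio, which left 1 member called, to -0.44 with quantile normalization and to -0.34 without the length trend, and CD70 was called lower under the latter pair (-0.18 and -0.225). With each sample left out in turn, the change of CD274 ranged from 3.81 to 3.95 for IFNγ against control, 0.00 to 0.12 for SB-3CT against control, -0.61 to -0.46 for both against IFNγ, 3.21 to 3.35 for both against SB-3CT and -0.68 to -0.53 for the interaction, and the calls ranged from 4 to 4, 0 to 1, 2 to 3, 4 to 4 and 2 to 3. Signs changed, for both against IFNγ, with the median ratio (CD276 0.085, CD47 0.094), the length trend removed (CD276 0.097, CD47 0.21, CD70 -0.16), quantile normalization (CD70 -0.12) and without the first sample with both agents (CD70 -0.012, in a range of -0.012 to 0.040 over the samples left out). For SB-3CT against control they changed with the median ratio (CD47 0.0049), quantile normalization (CD47 0.012, CD276 -0.016), the length trend removed (CD47 0.046), without the third control (CD47 0.0048, in a range of -0.078 to 0.0048) and without the third SB-3CT sample (CD276 -0.0036, in a range of -0.0036 to 0.031). For both against SB-3CT it was the median ratio (CD70 0.24), and for the interaction the median ratio (CD276 0.029, CD47 0.089, CD70 0.14) and the length trend removed (CD276 0.039, CD47 0.17). The cause of these changes was not tested.

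Samples with the same replicate number did not deviate together (correlations of deviations over 3177 genes from -0.39 to 0.17), so the numbers were not taken to pair them. The replicate block changed no member's call, with CD274 at an adjusted p of 0.0135 for both against IFNγ and 0.0228 for the interaction, and CEACAM1 at 0.0116 and 0.0058. Read depth is unknown, so no counting error can be set beside low values such as those of CD80 and of CD274 and CEACAM1 without IFNγ.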
